A study of Homo sapiens with 3 samples.

Results

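The genes described here are 60 listed members of inflammatory signalling in HepG2 cells: 27 secreted cytokines and chemokines and 33 components of the Toll-like receptor, NF-kappa-B and IL-6 pathways. The members were chosen by name, with earlier results of these data known. Each was read from the probe set that carried its symbol alone, or from the one with the highest mean where there were several. That gave values for 53 of the 60 members (24 ligands and 29 components) among 18417 genes in all. HepG2 is an established human hepatoblastoma-derived liver tumour line, and the 3 Affymetrix arrays of the study came from untreated cells (control), from cells kept for 24 h with graphene oxide (GO), a sheet of carbon that carries oxygen groups, and from cells kept for 24 h with its reduced form (rGO), which carries fewer. Doses were the EC20 of the material in question, taken from viability assays as a 20% effect, and the labels give no concentration for either. The 3 groups share the cell line and the culture medium, and nothing in the labels describes how many dishes or cultures stood behind an array.

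Cytokines and chemokines are secreted proteins that recruit and instruct immune cells, and hepatocytes both release them and respond to them. Toll-like receptors sense microbial products and, like the IL-1 receptor, signal through the adaptor MYD88, the IRAK kinases and TRAF6 to the kinase TAK1 (gene MAP3K7). TAK1 activates the IKK complex, IKK marks the IkappaB inhibitors for destruction, and the released NF-kappa-B dimers enter the nucleus and switch on many of the same cytokine genes. IL-6 acts through IL6R, the shared chain IL6ST and the transcription factor STAT3 on the genes of the acute phase response of the liver.

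With 1 array per group there was no replicate, so no value below has an error and no test was run; none of the differences can be told from variation between dishes or arrays. Deposited values were on a log2 scale and ran from 2.17 to 14.5, with array medians of 6.65 for the control, 6.63 for GO and 6.66 for rGO. The level filter asked for a 3-array mean of at least 6.66, the 40th percentile of genes, and 11050 genes and 31 members passed it. As a yardstick, differences of all genes past the filter had a robust SD of 0.244 for GO minus control and 0.116 for rGO minus control, and in 365 genes the top pair of probe sets, which held different values, gave differences that scattered with a robust SD per probe set of 0.0765 and 0.0570; a further 66 genes whose pair held identical values were left out of that SD. The hepatocyte markers ALB and APOB stood at 13.5 and 13.4 in the control, and 7 of 7 measured hepatocyte markers passed the filter. Of 11 measured leukocyte markers 9 lay below it, with the pan-leukocyte gene PTPRC at 3.65, and the 2 past it were LYZ and CD68.

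Promoter sequence is shown for 5 members because kappa-B, AP-1 and STAT elements are the known route by which such genes answer inflammatory signals. The windows are the 250 bases before the RefSeq transcription start (build GRCh38.p14), written 5′ to 3′ on the gene's strand, with capitals for a match to a motif. NFKB1 has 2 windows, of which 1 holds a kappa-B match, and the window of its most upstream start is shown. CCL20 (chr2:227813592-227813841, plus strand) is a classical NF-kappa-B target among the chemokines, NFKB1 (chr4:102501109-102501358, plus strand) encodes an NF-kappa-B subunit and NFKBIA (chr14:35404750-35404999, minus strand) its main inhibitor; the capitals in these mark a kappa-B consensus match that begins 79, 49 and 81 bases before the start. CXCL8 (chr4:73740319-73740568, plus strand) encodes interleukin-8, and its capitals mark an AP-1 match 137 bases before the start. Its window also holds tggaatttcc, which departs from the kappa-B consensus searched here only in its opening letter and so was not counted. The same holds for aggactttcc in the NFKBIA window. IL6R (chr1:154405093-154405342, plus strand) encodes the IL-6 receptor, the pathway component furthest above control after GO, and its window held no match to the 3 motifs.
CCL20: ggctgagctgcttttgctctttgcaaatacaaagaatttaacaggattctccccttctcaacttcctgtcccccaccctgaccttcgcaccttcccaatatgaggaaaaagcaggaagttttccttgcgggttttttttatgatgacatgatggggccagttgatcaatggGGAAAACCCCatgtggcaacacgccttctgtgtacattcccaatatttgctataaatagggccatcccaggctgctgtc
CXCL8: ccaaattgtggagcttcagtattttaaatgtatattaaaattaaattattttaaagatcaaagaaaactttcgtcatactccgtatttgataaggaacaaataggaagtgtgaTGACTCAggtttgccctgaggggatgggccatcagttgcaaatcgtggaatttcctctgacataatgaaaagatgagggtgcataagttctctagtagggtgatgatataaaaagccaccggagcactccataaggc
NFKB1: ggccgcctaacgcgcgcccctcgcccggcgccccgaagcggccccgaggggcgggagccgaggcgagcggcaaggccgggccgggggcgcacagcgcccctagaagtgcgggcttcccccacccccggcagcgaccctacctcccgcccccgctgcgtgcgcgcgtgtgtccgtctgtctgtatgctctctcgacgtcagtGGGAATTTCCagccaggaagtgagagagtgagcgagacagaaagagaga
NFKBIA: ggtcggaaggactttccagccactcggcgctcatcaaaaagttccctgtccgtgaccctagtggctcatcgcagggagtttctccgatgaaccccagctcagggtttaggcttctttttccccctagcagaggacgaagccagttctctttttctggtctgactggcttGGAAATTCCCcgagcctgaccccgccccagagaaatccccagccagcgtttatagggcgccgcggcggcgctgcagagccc
IL6R: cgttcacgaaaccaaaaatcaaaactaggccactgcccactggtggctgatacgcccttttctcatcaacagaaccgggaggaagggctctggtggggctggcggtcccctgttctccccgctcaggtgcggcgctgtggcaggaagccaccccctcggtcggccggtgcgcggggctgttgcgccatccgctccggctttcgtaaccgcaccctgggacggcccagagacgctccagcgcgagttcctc

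Letters were searched on both strands in all 250-base windows, with AP-1 as TGANTCA and STAT as TTCNNNGAA. The kappa-B consensus of 10 letters was GGGRNNYYCC, with R for A or G and Y for C or T. Overlapping matches were counted once per window. RefSeq windows existed for 41 of the 53 members. A kappa-B match was found for 18 of these 41 genes (43.9%), against 15.5% of the 8886 genes past the level filter that had a window and 11.8% of all 27305 genes. AP-1 letters were found for 8 members (19.5%), against 5.64% of genes past the filter and 8.06% of all genes. STAT letters were found for 5 (12.2%), against 7.29% and 8.09%. Members with a kappa-B match included the chemokines CXCL1, CXCL2, CXCL3, CXCL5, CXCL10 and CCL20, the cytokines IL6 and IL32, and NFKB2, TNFAIP3 and IRAK1. The list holds known NF-kappa-B targets such as CCL20, NFKBIA and TNFAIP3, so its higher kappa-B share is no independent result. The 41 genes also include members below the level filter, such as CXCL1 and IL6. A match describes letters in the window and not a used site, and a window without one says only that these letters are not there.

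After GO, 7 of the 8 secreted ligands past the level filter stood above the control. So did all 4 NF-kappa-B subunits among the members, while the kinase subunit CHUK stood below it. Of the 31 members past the filter, 4 were at least 1.5-fold higher in the GO array (CCL16, IL6R, CSF1 and IL1RN) and 1 was at least 1.5-fold lower (CHUK). The background over all genes past the filter was 1.91% for 1.5-fold higher and 4.23% for 1.5-fold lower. At 2-fold, 1 member was higher (background 0.253%) and 0 were lower (background 0.914%). At 1.3-fold, 9 were higher (background 6.56%) and 2 were lower (background 10.4%). Members above 0 numbered 21 of 31 (67.7%, against 51.1% of all genes), with NFKBIE alone changing side under quantile normalization or median centring, and the median difference was 0.15 against 0.01 over all genes.

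Only 3 of the 12 measured chemokines passed the level filter: CCL16, CCL20 and CXCL8. CCL16, a chemokine made mainly by the liver, read 7.66 in the control, 8.74 with GO and 7.74 with rGO. The GO array thus stood apart from the other two, which differed by 0.08. GO minus control was 1.09, or 2.13-fold, rank 23 from the top among 11050 genes. In RNA from a whole culture, more cells making a ligand and more RNA per cell cannot be told apart. CCL20, which attracts CCR6-bearing lymphocytes and dendritic cells, read 11.6, 11.5 and 11.8 in the control, GO and rGO arrays, with the highest value after rGO (0.17) and the lowest after GO (-0.17). CXCL8, the neutrophil attractant interleukin-8, read 8.29, 8.39 and 8.02. It was close to control after GO (0.10) and lowest after rGO (-0.27, rank 287 from the bottom).

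The 9 chemokines below the filter spanned -0.25 to 0.24 after GO. Of them 0 reached 1.5-fold, against 131 of all 7367 genes below the filter. These chemokines included CCL2, the monocyte attractant (-0.16), CCL5 (-0.00, values 5.76 in control and 5.76 with GO), the interferon-induced CXCL10 (-0.25) and CXCL12 (-0.03). CXCL1, CXCL2, CXCL3 and CXCL5 attract neutrophils and lie close together in RefSeq gene order, with CXCL8 nearby. Their GO differences were 0.06, 0.24, 0.07 and -0.01 in that order, and each of their windows holds a kappa-B match. CXCL1, CXCL2 and CXCL3 are near-identical copies, and a probe set can read more than 1 of them. The gene order also places CCL5, which stood level with control, near CCL16, with 2 protein-coding genes between them.

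Among the other cytokines all 5 past the filter were above control after GO, against 51.1% of all genes. Their median was 0.47, against 0.01 over all genes. Of the 7 measured below the filter, 3 were above 0 and 4 below. CSF1, the growth factor of macrophages, read 8.06 in the control, 8.71 with GO and 8.15 with rGO, a GO difference of 0.64 (1.56-fold). IL1RN, the secreted antagonist of the IL-1 receptor, read 8.54, 9.17 and 8.56, a GO difference of 0.63 (1.54-fold). In both genes the GO array was set apart, while rGO differed from control by 0.08 and 0.02. The rank of CSF1 was 160 from the top and that of IL1RN 176. IL32, an inducible pro-inflammatory cytokine, read 10.2, 10.7 and 10.2 (GO difference 0.47, 1.38-fold). IL11, a cytokine of the IL-6 family, stood at 0.18 after GO and at -0.22 after rGO, and CSF3, the granulocyte growth factor, at 0.08 and 0.00, the latter changing sign under quantile normalization or median centring.

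The cytokines that start most inflammatory cascades were read at low values. IL1A, IL1B, IL6 and TNF lay below the filter, at 4.20, 5.03, 4.61 and 5.71 in the control, and their GO differences were -0.03, -0.06, 0.11 and -0.28. TNF was read by 3 probe sets that held identical values. IL18, a relative of IL-1 that induces interferon-gamma, was the exception among the weakly read ligands. It read 5.01 in the control, 6.18 with GO and 5.35 with rGO, a GO difference of 1.17 (2.25-fold), larger than that of CCL16 but with all 3 values below the filter level of 6.66, where background can distort a difference. Of the 7367 genes below the filter, 131 differed by at least 1.5-fold between GO and control. LIF stood at 0.27 and IL15, a growth factor of natural killer cells, at -0.05.

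**Figure D1:**
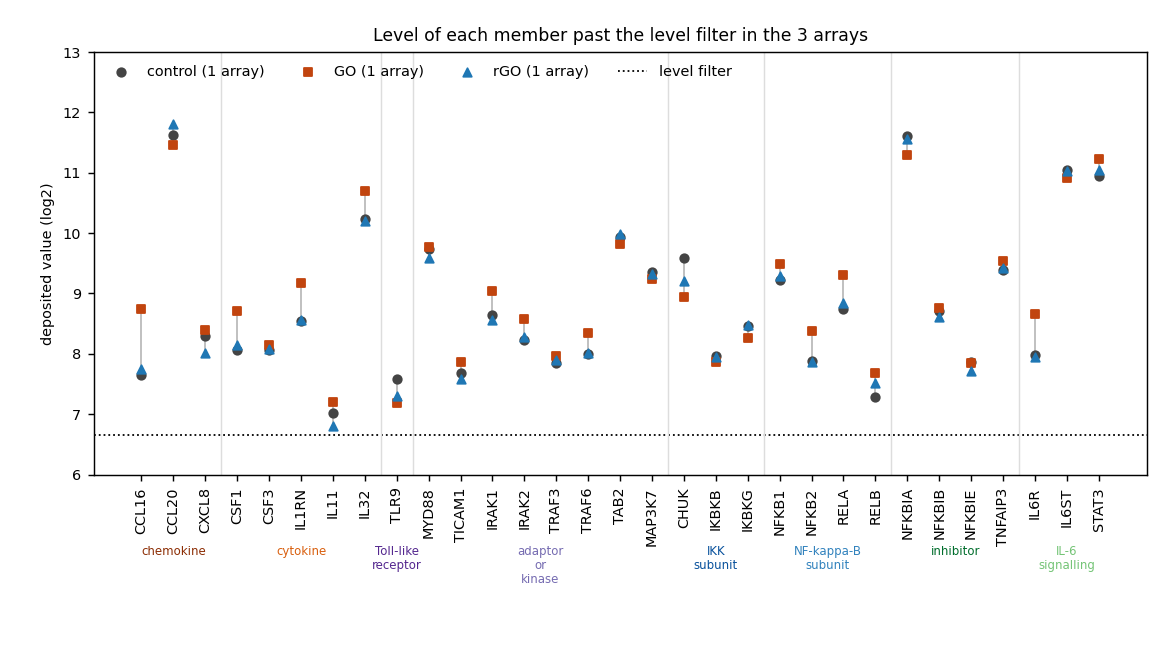
Deposited log2 value of each of the 31 members past the level filter (dotted line, 6.66) in the control (circle), GO (square) and rGO (triangle) arrays, grouped by role; the vertical line joins the lowest and highest of the 3 values. CCL16, CSF1, IL1RN, IL6R, RELA and NFKB2 have the GO array above a close control and rGO pair, whereas CHUK has the control on top.

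Most of the Toll-like receptors lay below the level filter. Of 6 measured Toll-like receptors, TLR1, TLR2, TLR3, TLR4 and TLR6 lay below the filter, with control values between 3.89 and 5.50 and GO differences between -0.06 and 0.24. TLR9, the sensor of unmethylated CpG DNA, passed it at 7.59 in the control, 7.18 with GO and 7.31 with rGO, so the control was highest and both exposed arrays were lower (-0.41 and -0.28). TLR1 and TLR6 adjoin each other in gene order and encode closely related partners of TLR2, so their probe sets may share signal.

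All 8 measured members acting as adaptors and kinases between the receptors and IKK passed the filter. After GO their median was 0.15 and 6 were above 0 (75.0%, against 51.1% of all genes). IRAK1 and IRAK2, kinases that join MYD88 at the receptor, read 8.64 and 8.22 in the control and 9.04 and 8.58 with GO (differences 0.39 and 0.35). TRAF6, the ubiquitin ligase they act on, read 8.0 in the control, 8.35 with GO and 8.02 with rGO (GO difference 0.35). MYD88 stood at 0.04 and TICAM1, the adaptor of TLR3 and TLR4, at 0.18. Further down the chain, TAB2, which tethers TAK1 to ubiquitin chains, stood at -0.11 and MAP3K7 at -0.12. Both are smaller in size than the robust SD of 0.244 over all genes past the filter. TAB3, a relative of TAB2 outside the members, stood at 0.23. TRAF3, which serves the interferon branch and restrains non-canonical NF-kappa-B, stood at 0.11. The GO differences of MYD88, TICAM1, TAB3 and TRAF3 were also smaller than that robust SD. After rGO the 8 member genes lay between -0.15 and 0.06.

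The 3 IKK subunits stood below control after GO, and the 4 NF-kappa-B subunits among the members stood above it. Of all genes past the filter, 51.1% stood above 0. CHUK, the kinase subunit IKK-alpha that drives the non-canonical pathway, read 9.59 in the control, 8.94 with GO and 9.20 with rGO. The control was the highest of the 3 and the GO array the lowest. GO minus control was -0.65 (1.57-fold lower, rank 355 from the bottom) and rGO minus control -0.39 (1.31-fold lower, rank 91 from the bottom). IKBKB, the IKK-beta subunit of the canonical pathway, and IKBKG, the scaffold NEMO, stood at -0.10 and -0.19 after GO and at -0.02 and 0.02 after rGO. Both GO differences were smaller in size than the robust SD of 0.244 over all genes past the filter. IKBKG has a near-identical partial copy in the genome, so its value is uncertain.

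All 4 NF-kappa-B subunits among the members stood above control after GO, with a median of 0.45 against 0.01 over all genes. RELA, the transactivating p65 subunit, read 8.75 in the control, 9.31 with GO and 8.84 with rGO (GO difference 0.56, 1.47-fold, rank 254 from the top). NFKB2, the p100 precursor of p52, read 7.88, 8.37 and 7.86 (0.49, 1.40-fold). RELB, the partner of p52, read 7.28, 7.68 and 7.51, and so was above control in both exposures (0.41 and 0.24). Its rGO rank was 239 from the top. NFKB1, the p105 precursor of p50, stood at 0.26 after GO and 0.06 after rGO. Of the 4 genes, 0 reached 1.5-fold after GO (background 1.91% higher and 4.23% lower) or after rGO (background 0.154% in either direction). REL, a further NF-kappa-B subunit outside the members, read 8.91 in the control and 8.85 with GO (-0.06).

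The inhibitors stood nearer to control than the member subunits, or below it. NFKBIA, which encodes IkappaB-alpha and is itself an NF-kappa-B target, read 11.6 in the control, 11.3 with GO and 11.6 with rGO, a GO difference of -0.30. NFKBIB and NFKBIE, further IkappaB proteins, stood at 0.05 and -0.01, the second changing sign with the normalization. TNFAIP3, the ubiquitin-editing enzyme A20 and another NF-kappa-B target, stood at 0.15. The 4 inhibitors spanned -0.15 to 0.04 after rGO.

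In the IL-6 branch, IL6R read 7.98 in the control, 8.66 with GO and 7.94 with rGO. The GO array stood above the control by 0.69 (1.61-fold, rank 128 from the top). STAT3 read 10.9, 11.2 and 11.0 (GO difference 0.29). IL6ST, the gp130 chain shared by the receptors of the IL-6 family, stood at -0.13. SOCS3, the feedback inhibitor that STAT3 induces, lay below the filter at 6.30 in the control and 6.24 with GO.

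**Figure D2:**
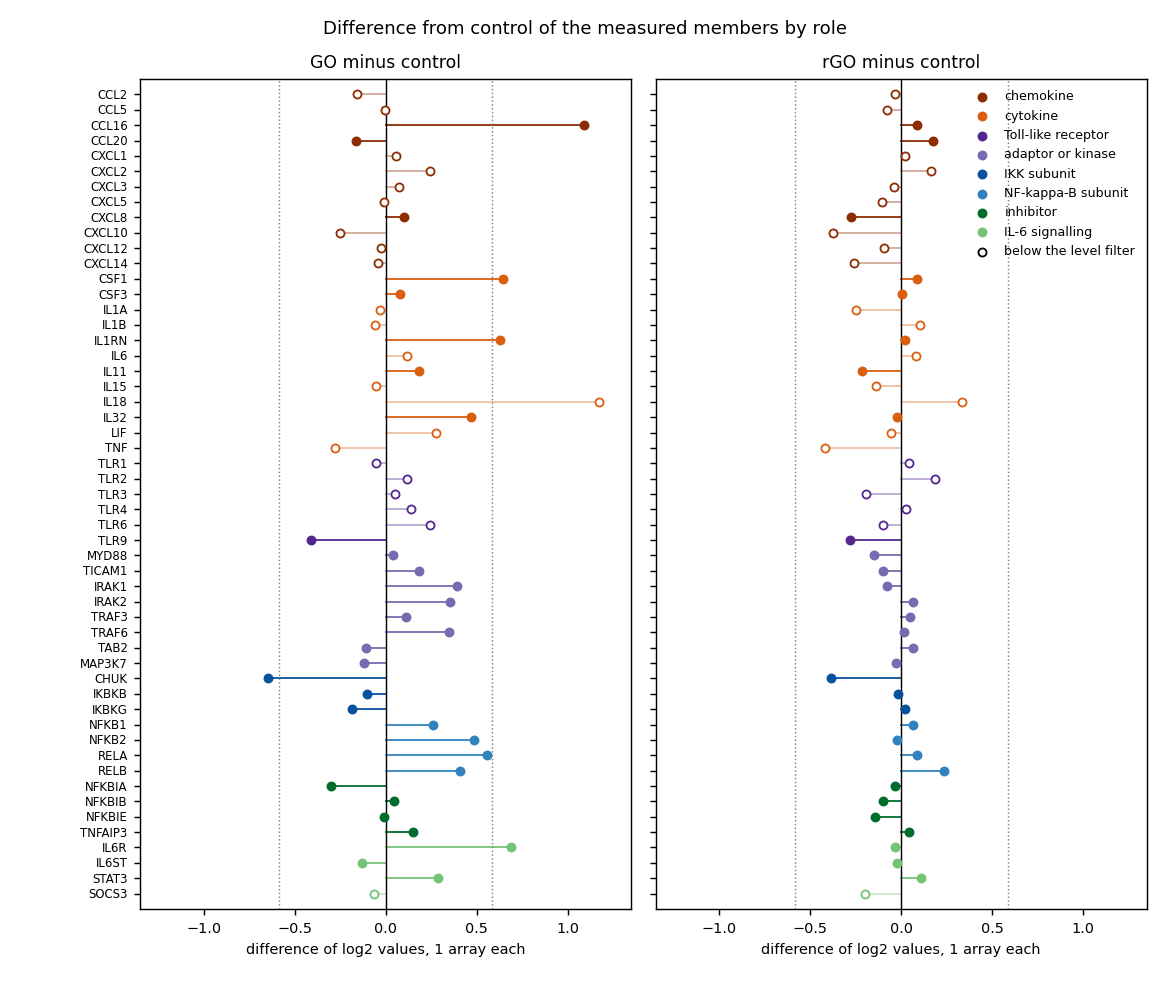
Difference of log2 values from the control array for all 53 measured members, GO on the left and rGO on the right, coloured by role; open circles lie below the level filter and dotted lines mark 1.5-fold. The GO values reach from -0.65 for CHUK to 1.17 for IL18, and the rGO values stay inside the dotted lines.

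Secreted ligands were then set against pathway components. Past the filter, the median GO difference of the 8 ligands was 0.33. Above 0 were 7 (87.5%, against 51.1% of all genes), and 3 reached 1.5-fold upward (37.5%, background 1.91%). For the 23 components the median was 0.11, and 14 were above 0 (60.9%). Among them 1 reached 1.5-fold upward (4.35%, background 1.91%) and 1 downward (4.35%, background 4.23%). The order of the 2 groups rested on the filter: over all measured members the medians were 0.06 for the 24 ligands and 0.11 for the 29 components. For the 16 ligands below the filter the median was -0.02; 6 were above 0 and 10 below. The filter passed 8 of 24 ligands and 23 of 29 components, so the ligand median past it speaks for a minority of the ligands.

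**Figure D3:**
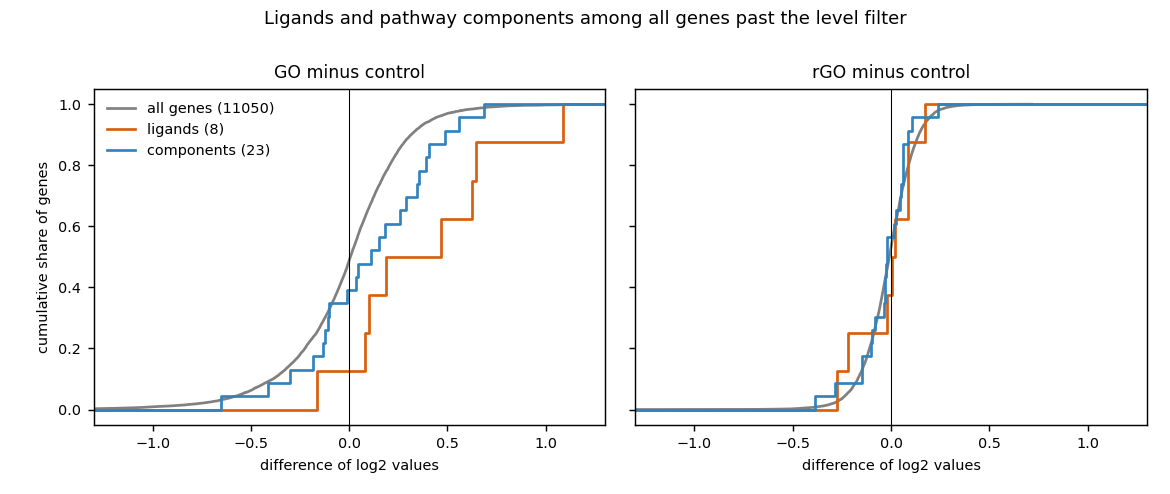
Cumulative share of genes (vertical) against the difference of log2 values from control (horizontal) for all 11050 genes past the filter (grey), the 8 ligands (orange) and the 23 components (blue). After GO the ligand curve runs to the right of the grey one, with 7 of 8 ligands above 0; after rGO the 3 curves run close together.

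After rGO, 0 of the 31 members past the filter differed from control by 1.5-fold, as did 0.154% of all genes. At 1.3-fold, 1 member was lower (CHUK, background 0.896%) and 0 were higher (background 0.299%). The median over the members was -0.02, against -0.01 over all genes, and 15 lay above 0 and 16 below; of these CSF3 and TRAF6 changed side after quantile normalization. Ligands past the filter had a median of 0.01 and components one of -0.02. The members furthest from control were CHUK (-0.39), TLR9 (-0.28), CXCL8 (-0.27), RELB (0.24) and IL11 (-0.22). CHUK and TLR9 lay below control in both exposed arrays, and both differences use the same control array. Below the filter TNF stood at -0.42, CXCL10 at -0.38 and IL18 at 0.34.

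The direct difference between the exposed arrays, GO minus rGO, uses no control. At least 1.5-fold higher in the GO array were 3 of 31 members, CCL16 (1.0), IL6R (0.72) and IL1RN (0.61), against 1.82% of all genes, and 0 were at least 1.5-fold lower, against 3.20%. At 1.3-fold, 9 were higher (background 6.20%) and 0 lower (background 8.38%), and at 2-fold 1 was higher (background 0.262%). CSF1 stood at 0.56, NFKB2 at 0.51, IL32 at 0.49, RELA and IRAK1 at 0.47. CHUK stood at -0.26 and CCL20, the lowest, at -0.34. The concentrations of the materials may differ, so these values set one EC20 exposure beside the other and do not compare equal doses.

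Other genes of the pathways were read from a list of 55 receptors, kinases and regulators, of which 41 passed the filter. Their median after GO was 0.15, and 27 were above 0 (65.9%, against 51.1% of all genes). Of the 41, 1 reached 1.5-fold upward (2.44%, background 1.91%) and 1 downward (2.44%, background 4.23%). TNIP1, a partner of A20 that restrains NF-kappa-B, stood at 0.59, and TBK1, a kinase of the interferon branch, at -0.60. Close to these sizes were JAK1, a kinase bound to IL6ST (0.54), OSMR, the oncostatin M receptor (0.43), TIRAP, which bridges TLR2 and TLR4 to MYD88 (0.41), BIRC2, a ubiquitin ligase of TNF signalling (-0.53), and LIFR (-0.49). The IL-1 receptor gene IL1R1 stood at 0.16 and the TNF receptor gene TNFRSF1A at 0.23, while the NF-kappa-B subunit gene REL stood at -0.06. After rGO 0 of the 41 reached 1.5-fold (background 0.154%), and their median was -0.01. CD14 and LY96, co-receptors of TLR4, lay below the filter. LY96 read 5.70 in the control, 5.28 with GO and 4.92 with rGO, and its rGO difference of -0.77 (1.71-fold lower) was the 1 difference past 1.5-fold among the 11 listed genes below the filter. Of all 7367 genes below the filter, 49 differed by at least 1.5-fold between rGO and control.

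Known targets of NF-kappa-B and STAT3 split after GO. Of 38 listed targets, 4 of them also on the list just described, 23 passed the filter; 3 of these reached 1.5-fold upward and 4 downward, where the background was 1.91% and 4.23%. Above 0 were 15 and below it 8 (65.2% above, against 51.1% of all genes), and the median was 0.05. ICAM1, an adhesion molecule for leukocytes, read 10.5 in the control, 11.6 with GO and 10.6 with rGO (1.15, 2.22-fold). IER3, an early response gene, stood at 0.75 and CEBPD, a transcription factor of the acute phase, at 0.66. The 4 lower genes were HAMP, which encodes the iron hormone hepcidin (-2.71), the fibrinogen chains FGB (-0.85) and FGG (-0.63), and haptoglobin HP (-0.63). HAMP also answers BMP signals. FGA, the other fibrinogen chain, stood at 0.05, ORM1 and ORM2 at -0.11 and 0.04, and C3 at 0.17. SERPINA3, an acute phase protease inhibitor, stood at 0.38, the complement factor CFB at 0.02 and A2M at -0.01. CRP and SAA1, the textbook acute phase markers, lay below the filter, at 4.74 and 3.15 in the control.

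**Figure D4:**
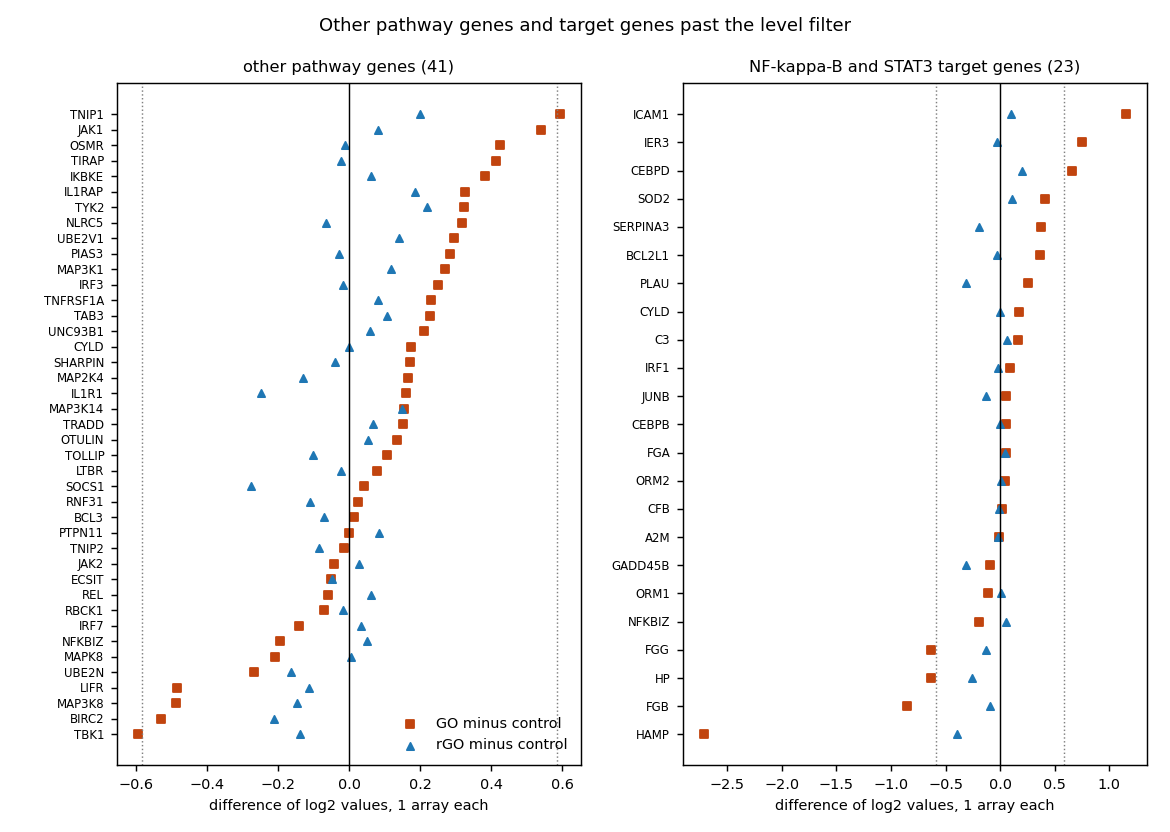
Difference of log2 values from control for the 41 other pathway genes (left) and 23 target genes (right) past the filter, with GO as squares and rGO as triangles, ordered by the GO value; dotted lines mark 1.5-fold. ICAM1 stands highest among the targets after GO at 1.15 and HAMP lowest at -2.71, and the rGO values lie nearer to 0 at both ends.

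Markers of other cell types stood beside these values as follows. The 2 leukocyte markers past the filter, CD68 and LYZ, stood at 0.38 and 0.20 after GO, and the 9 below it spanned -0.36 to 0.32. Of stellate, fibroblast and endothelial markers 4 of 10 passed the filter, with a median of 0.17 after GO and -0.28 after rGO. In GO minus rGO these 4 stood above 0 with a median of 0.39, beside 0.45 for the 8 ligands. PDGFRB (0.73) and LYVE1 (0.67) were at least 1.5-fold higher, against 1.82% of all genes past the filter. Their rGO values, 6.57 and 6.59, lay below the filter level of 6.66. The 6 markers below the filter all stood below control after GO, with a median of -0.13. Their median in GO minus rGO was -0.10. The labels name HepG2, a cell line, and LYZ and CD68 read 13.2 and 9.61 in its control array. Whether other cells were present, or had any part in the ligand values, was not tested.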

How the data were processed

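Expression was measured on 3 Affymetrix arrays of HepG2 cells, labelled from about 300 ng of total RNA per the labels' protocols. The authors deposited log2 values per probe set. RMA and MAS5 appear in the submitters' processing notes with no role; genome build: not given in the sources used here. Array distributions were nearly equal, which points to normalisation between arrays; genes were not centred, and further scaling is unknown.

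Of 33297 probe sets, 19460 carried 1 symbol in the platform annotation, which can be old; 1754 carried several and 12083 none listed. CCL15, MIF and TAB1 share a probe set with another symbol, and CSF2, TLR5, IRAK4 and TRAF2 are not analysed here. Each comparison is a difference of log2 values between single arrays, counted by sizes of 1.5-fold and 2-fold. The number of arrays limits the precision. Genes named are those at least 1.5-fold from control, those that stand for a role, and further members picked after their values were seen. Members, lists and sizes were chosen with earlier results of these data known. Robust SDs are scaled median absolute deviations. In the table of alternatives, a median counted as moved where it shifted by more than the probe-set-pair SD.

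The alternatives tried were median centring, quantile normalization, a loess on level with span 0.3, no filter, a 60th percentile filter, averaged probe sets, sizes of 1.3-fold and 2-fold, and means in place of medians. Python 3.11.15, numpy 2.4.6, pandas 2.3.3, statsmodels 0.14.6 and matplotlib 3.10.9 were used. Promoter windows are from RefSeq, build GRCh38.p14.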

Additional observations from a re-analysis of the deposited data

Results flagged for a closer look

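A probe set listed for CCL15 together with CCL14 and their read-through transcript was kept out of the comparisons because it names several genes. It read 7.97 in the control, 8.43 with GO and 8.02 with rGO, a GO difference of 0.46, which is more than the robust SD of 0.244 over all genes past the filter. CCL15 lies next but 1 to CCL16 in RefSeq gene order. The probe sets shared by MIF and by TAB1 stood at 0.18 and -0.12 after GO.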

How the results depend on the processing

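With no level filter the ligand median after GO was 0.064 in place of 0.33, and ligands minus components turned from 0.22 to -0.046; with a 60th percentile filter the ligand median was 0.47 and the difference 0.36. For GO minus rGO, with no filter, the ligand median was 0.12 in place of 0.45 and ligands minus components -0.019 in place of 0.30. At 1.3-fold 9 members were higher (6.56% of all genes) and 2 lower (10.4%) after GO, 1 was lower after rGO (0.896%), and 9 were higher in GO minus rGO (6.20%). At 2-fold 1 member was higher after GO (0.253%) and 0 were lower (0.914%), and 1 was higher in GO minus rGO (0.262%). The other 41 of 48 counts stayed within 1.5 times the reported count; among these, members higher in GO minus rGO went from 3 to 4 with quantile normalization, median centring or no filter, and members higher after GO from 4 to 5 with no filter. Shifts smaller than the probe-set-pair SD were seen for 57 of 63 medians or differences of medians and 44 of 44 values of single genes. Part of this was fixed in advance. Every member past the filter had 1 probe set, so averaging probe sets could not change its value. Median centring moves every difference by the same constant, at most 0.04 here, and cannot change ligands minus components. Quantile normalization, median centring and loess changed the sign of at most 2 of 31 members, none of them over 0.02 from 0, and shifted all genes by at most 0.04. No paired analysis was possible because each group has 1 array. Weakly read genes such as IL18 and the Toll-like receptors carry the most background.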
